A study of Arabidopsis thaliana with 27 samples.

Results

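Seeds of the Arabidopsis thaliana mutant hid1 were followed from 24 h to 48 h of darkness, by setting the 3 count libraries labelled hid1 at 48 h against the 3 labelled hid1 at 24 h, over all genes. These 6 libraries are part of a series of 27, in which the wild type Col-0 (WT), hid1 and phyB were each sampled at 12, 24 and 48 h with 3 biological replicates. All plants were grown together and their seeds harvested on 1 day, dried for about 2 months at room temperature, and exposed to white light for 1 h during sterilization and plating. Every group then received a red pulse lasting 5 min, with 20 μmol m-2 s-1 as its intensity, the treatment called phyB-on, and was kept in the dark. The material was whole seeds, so embryo, endosperm and seed coat were measured together. The labels name no hid1 allele. The WT libraries at 24 h and 48 h, 3 each, serve below as the comparison over the same interval.

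HID1 is a noncoding RNA, and the series asks how it promotes germination through phytochrome B, with the synthesis of the hormone abscisic acid (ABA) as the proposed link. Phytochrome B is a photoreceptor that red light switches on. In imbibed seeds it tips the balance from ABA, which maintains dormancy and the desiccation-tolerant state, towards gibberellin (GA), which promotes germination. Germination is followed by the loss of late embryogenesis abundant (LEA) and storage transcripts, by loosening of cell walls, by resumed cell division and, in the seedling, by root hairs and the photosynthetic apparatus.

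The hid1 libraries held 17058436 to 18660126 counts at 24 h and 17576726 to 21470086 counts at 48 h. HID1 itself was counted 0 times in each hid1 library at 24 h and 0, 1 and 0 times in replicates 1, 2 and 3 at 48 h, against 296 to 348 times in WT at 24 h and 243 to 318 times at 48 h. Storage and LEA transcripts, which mark seeds, were abundant in all 6 hid1 libraries, while none of the 6 seed coat flavonoid markers had enough counts to be tested. Some features of the libraries moved with time. The share of counts on ribosomal RNA genes went from 0.0946 to 0.114% at 24 h to 0.5 to 0.729% at 48 h in hid1, and from 0.0521 to 0.108% to 0.421 to 0.83% in WT. The share on chloroplast genes went from 0.237 to 0.309% to 0.0819 to 0.144% in hid1, and that on mitochondrial genes from 0.0151 to 0.0234% to 0.119 to 0.188%. How far library preparation takes part in these shares was not tested.

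The filter on low counts left 20465 of 33612 genes. From 24 h to 48 h in hid1, 12240 of them (59.8%) passed: 6438 were higher (31.5%) and 5802 lower (28.4%) at an adjusted p under 0.05 (edgeR quasi-likelihood test, Benjamini-Hochberg adjustment). Most of these changes were small. At least 4-fold, 999 genes rose (4.88%) and 189 fell (0.924%), and the median change over all genes tested was 0.03 on the log2 scale. The 3 libraries of 48 h lay wholly above those of 24 h for 34.1% of genes tested and wholly below for 31.0%. Levels are given below as CPM (counts per 1000000 on scaled library sizes), in the order of replicates 1, 2 and 3. Changes are log2 fold changes ± SE from the fit of all 27 libraries, with n = 3 per group.

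The 12 largest rises included genes of the cell wall, the cuticle and secreted proteins. The peroxidase gene AT5G64100 stood at 0.582, 0.639 and 0.259 CPM at 24 h and at 141, 141 and 151 CPM at 48 h, a rise of 8.17 ± 0.24 (adjusted p = 1.41e-17). BXL1 (AT5G49360), a beta-xylosidase that trims cell wall polysaccharides, rose from 0.291, 0.213 and 0.207 CPM to 55, 62.3 and 54 CPM (7.86 ± 0.39, adjusted p = 6.47e-15). For both genes the groups were far apart, with every library at 48 h above every library at 24 h. CER1 (AT1G02205), which makes the alkanes of cuticular wax, rose from 0.145, 0.266 and 0.156 CPM to 29, 34.2 and 20.4 CPM (7.17 ± 0.38, adjusted p = 2.29e-14). CYP77B1 (AT1G11600), a cytochrome P450, rose by 5.21 ± 0.29. GASA1 (AT1G75750), a small secreted peptide of a GA-regulated family, rose from 0.291, 0.266 and 0.156 CPM to 36.2, 33.8 and 28.6 CPM (7.07 ± 0.32, adjusted p = 9.83e-16). BGLU21 (AT1G66270), a beta-glucosidase, rose from 1.84, 1.49 and 0.622 CPM to 132, 146 and 119 CPM (6.63 ± 0.26, adjusted p = 3.4e-16). These 6 genes rose in WT too, where their changes were 8.89 ± 0.23, 9.27 ± 0.30, 6.79 ± 0.22, 7.46 ± 0.22, 8.28 ± 0.31 and 7.48 ± 0.24 in the order AT5G64100, BXL1, CER1, CYP77B1, GASA1 and BGLU21. In the test of the difference between hid1 and WT, CYP77B1 passed (-2.25 ± 0.65, adjusted p = 0.00464) and the other 5 did not. BGLU21 did pass with the hid1 and WT libraries of 24 h and 48 h alone (-0.83, adjusted p = 0.0441) and without hid1 replicate 3 at 24 h (-1.17, adjusted p = 0.0443). One further gene among the 12, AT2G01021, is named although the naming rule leaves it out, since its level moved with the ribosomal RNA share: it stood at 32.7, 31.3 and 72.1 CPM at 48 h, where that share was 0.513, 0.5 and 0.729% in the same libraries.

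The 12 largest falls were smaller than the rises. ACA7 (AT1G08080), an alpha carbonic anhydrase, fell from 15, 13.3 and 17.3 CPM to 0.721, 0.583 and 0.399 CPM (-4.71 ± 0.33, adjusted p = 5.04e-12). MEE23 (AT2G34790), of the berberine bridge enzyme family, fell from 17.8, 18 and 13.9 CPM to 0.636, 0.388 and 1.25 CPM (-4.46 ± 0.24, adjusted p = 2.09e-14). All 3 libraries at 48 h lay below those at 24 h for both genes. Its relative AT1G26410 fell by 3.55 ± 0.27 on the log2 scale. MEE23 fell further than in WT, where it went from 12.3 to 7.41 CPM (-0.71 ± 0.16), and the difference between the genotypes passed its test (-3.75 ± 0.30, adjusted p = 4.42e-11). GASA6 (AT1G74670), another member of the GASA peptide family, fell from 199, 184 and 239 CPM to 16.5, 16.6 and 25.6 CPM (-3.41 ± 0.26, adjusted p = 1.68e-11), beside a WT change of -3.89 ± 0.26. So GASA1 and GASA6 moved in opposite directions in hid1 over the same interval. PNP-A (AT2G18660), a natriuretic peptide, fell by 3.39 ± 0.27 on the log2 scale and the camalexin enzyme gene CYP71A13 (AT2G30770) by 3.17 ± 0.23. Among the other falls were the signalling genes MAPKKK20, a kinase (-3.39 ± 0.18), and PSK4, a phytosulfokine precursor (-3.04 ± 0.30). RPL2.1 (-3.66 ± 0.27) and YCF1.2 (-3.09 ± 0.37) lie in the chloroplast genome. Of 104 chloroplast genes tested, 32 were higher and 40 were lower at 48 h in hid1, beside 31.5% and 28.4% of all genes tested.

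**Figure D1:**
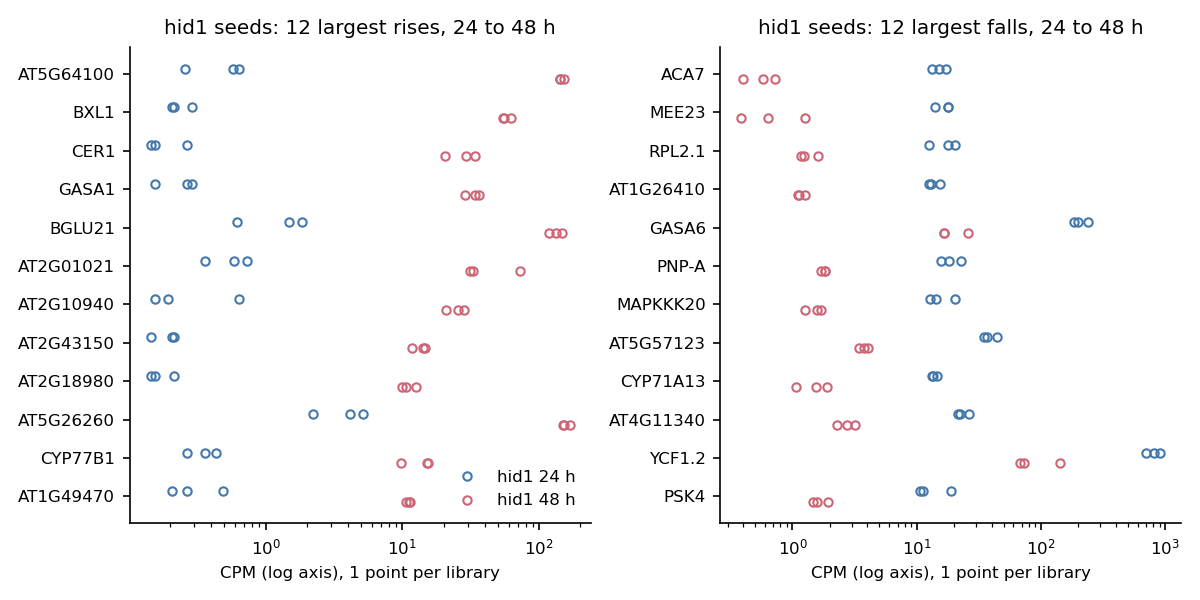
Levels of the 12 largest rises (left) and 12 largest falls (right) in hid1 seeds, 1 point per library, in CPM on a log axis, with 24 h in blue and 48 h in red. For every gene the 3 points of 48 h lie apart from the 3 of 24 h, and the rises span a wider range than the falls, up to a log2 change of 8.17.

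Set beside WT over the same interval, hid1 changed in fewer genes and by less. In WT 16834 genes passed (82.3%), 9049 of them higher (44.2%) and 7785 lower (38.0%), with 3490 rising (17.1%) and 876 falling (4.28%) at least 4-fold. The median size of the change, without its sign, was 0.384 in hid1 and 0.785 in WT on the log2 scale over all genes tested. Across these 20465 genes the changes in hid1 and WT, which share no libraries, had a Pearson r of 0.666 and a Spearman rho of 0.604; genes are not independent replicates, and no p is given. Of the 1188 genes that passed at least 4-fold in hid1, 96.1% had the same sign in WT, with a median size of 3.17 in hid1 and 5.06 in WT. The difference between the changes was tested for every gene: it passed for 12813 genes (62.6%), 6238 with the hid1 change above the WT change (30.5%) and 6575 with it below (32.1%). Among the 12240 genes that passed in hid1, the difference passed for 4775 that changed in the same direction as in WT but less, for 812 that changed in the same direction and more, and for 2524 whose change had the opposite sign. In whole seeds, fewer cells of a type and less RNA per cell cannot be told apart.

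**Figure D2:**
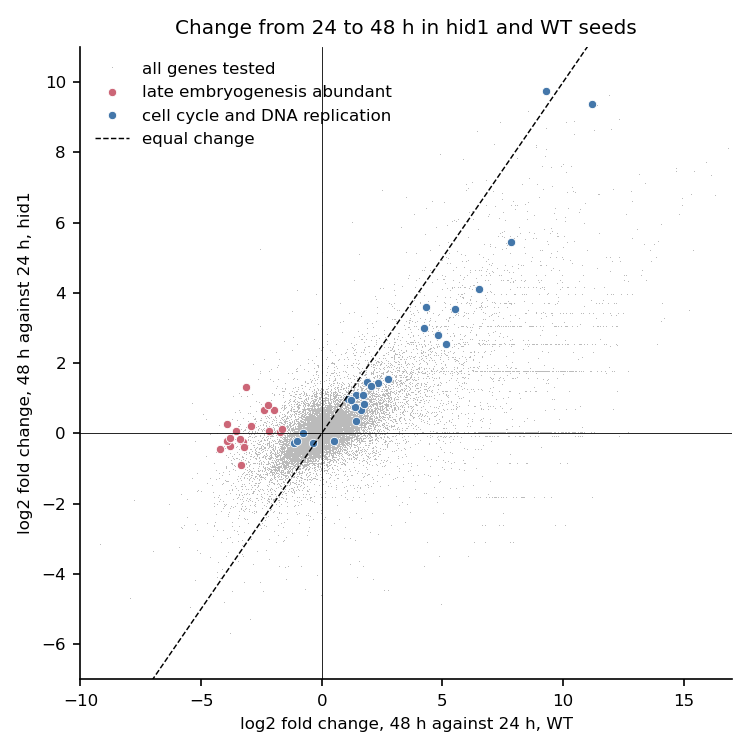
Log2 fold change from 24 h to 48 h in hid1 (vertical) against that in WT (horizontal) for the 20465 genes tested (grey), with LEA genes in red, cell cycle genes in blue and equal change as a dashed line. LEA genes lie far left, near 0 in hid1, while most cell cycle genes lie between the horizontal and the dashed line; flat grey bands are genes with a few counts in hid1.

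The LEA genes, whose products protect drying cells, held their level in sum. In hid1, 5 of 19 rose, 5 fell and 9 did not pass, beside 31.5% higher and 28.4% lower over all genes tested, with a median change of 0.03, the same as over all genes. In WT all 19 fell, beside 38.0% of all genes, with a median of -3.25, and the test of the difference passed for all 19, each with the hid1 change above the WT change, as for 30.5% of all genes. Summed over the list, hid1 held 17200 to 18500 CPM at 24 h and 17000 to 21100 CPM at 48 h, where WT went from 12100 to 14300 CPM to 1460 to 2410 CPM. EM1 (AT3G51810), an Em protein of the mature embryo, stood at 729, 820 and 691 CPM at 24 h and at 1390, 1390 and 1120 CPM at 48 h in hid1 (0.80 ± 0.14, adjusted p = 1.59e-05). The groups did not overlap. In WT it went the other way, from 610 to 132 CPM (-2.21 ± 0.14, difference 3.01 ± 0.20, adjusted p = 7.2e-13). AT3G02480, a LEA gene without a symbol, had the largest rise of the list, from 644, 633 and 585 CPM to 1850, 1550 and 1260 CPM (1.33 ± 0.13, adjusted p = 1.06e-09), against 376 to 42.8 CPM in WT. LEA7 (AT1G52690) fell from 592, 601 and 642 CPM to 504, 476 and 456 CPM (-0.35 ± 0.08), beside -3.80 ± 0.09 in WT. M10 (AT2G41280) fell most in hid1, by 0.91 ± 0.13 on the log2 scale. Without replicate 2 at 24 h or replicate 3 at 48 h, 3 in place of 5 LEA genes passed as lower. Among the rises, that of AT3G15670 did not pass in most fits with 1 hid1 library left out.

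LEA promoters are known for ABA response elements. The letters ACGTGNC, searched on both strands from 250 bases before to 50 bases after each gene's start (RefSeq, TAIR10.1), occurred in 16 of 19 LEA promoters (84.2%), against 11.8% of the 20039 promoters matched to genes tested. The palindrome CACGTG, which can share letters with ACGTGNC, occurred in 68.4% of LEA promoters against 8.9%. Of the genes that fell at least 4-fold in WT and passed the test of the difference, 25.5% held ACGTGNC, while the share was 9.83% among those that rose at least 4-fold in hid1 and 10.3% among those that fell at least 4-fold there. The 200 bases before the start are printed for 3 LEA genes to show how these letters lie, with each match of ACGTGNC on either strand in capitals: EM1 on the plus strand at chr3:19214522-19214721, EM6 (AT2G40170) on the minus strand at chr2:16780369-16780568, and LEA4-5 (AT5G06760) on the minus strand at chr5:2090431-2090630. They are reference sequence from RefSeq in the TAIR10.1 build, written 5′ to 3′ towards the gene.
EM1: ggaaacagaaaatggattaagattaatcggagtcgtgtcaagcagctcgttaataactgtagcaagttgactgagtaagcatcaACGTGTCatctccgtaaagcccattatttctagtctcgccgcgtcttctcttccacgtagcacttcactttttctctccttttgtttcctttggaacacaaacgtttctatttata
EM6: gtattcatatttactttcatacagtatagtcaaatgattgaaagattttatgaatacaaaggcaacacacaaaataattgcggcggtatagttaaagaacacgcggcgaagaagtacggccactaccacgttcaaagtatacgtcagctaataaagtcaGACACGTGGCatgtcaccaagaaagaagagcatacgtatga
LEA4-5: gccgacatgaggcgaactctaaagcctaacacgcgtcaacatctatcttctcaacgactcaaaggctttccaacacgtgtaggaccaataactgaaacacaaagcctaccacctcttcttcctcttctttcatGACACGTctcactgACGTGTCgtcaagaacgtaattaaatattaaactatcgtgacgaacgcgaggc
In hid1, EM6 rose from 532, 589 and 551 CPM to 995, 1000 and 675 CPM (0.68 ± 0.17, adjusted p = 0.00107) and LEA4-5 stood at 1440, 1490 and 1460 CPM and then 1420, 1390 and 1180 CPM (-0.14 ± 0.11, adjusted p = 0.285). In WT both fell, by 1.98 ± 0.17 and 3.82 ± 0.12 on the log2 scale.

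Storage protein genes moved in both directions in hid1. The cruciferins, which are the 12S globulins, did not move as 1 family. CRA1 (AT5G44120) rose from 10500, 12500 and 11000 CPM to 28600, 32900 and 25700 CPM (1.36 ± 0.18, adjusted p = 2.3e-07), and CRC (AT4G28520) from 5180, 6090 and 5510 CPM to 14100, 16200 and 12600 CPM (1.35 ± 0.20, adjusted p = 2.66e-06). CRB (AT1G03880) stood at 166, 169 and 177 CPM and then 161, 195 and 157 CPM, and the groups overlapped (0.00 ± 0.26). Neither CRA1 nor CRC passed in WT (-0.28 and 0.32), and the difference passed for both (1.63 ± 0.24 and 1.03 ± 0.29, adjusted p = 1.97e-06 and 0.00267). The 2S albumins SESA3 (AT4G27160), from 1450, 1380 and 1380 CPM to 351, 347 and 336 CPM (-2.02 ± 0.43, adjusted p = 0.000199), and SESA1 (AT4G27140), from 190, 191 and 193 CPM to 54, 53.3 and 59 CPM (-1.79 ± 0.35, adjusted p = 8.35e-05), fell. SESA5 (AT5G54740), of the same family, stood at 2030, 2290 and 2320 CPM and then 2570, 3350 and 2320 CPM and did not pass (0.31 ± 0.20, adjusted p = 0.186). On the authors' length-scaled FPKM, given as group means without replicates, CRA1 went from 7370 to 18200 and SESA3 from 1940 to 482. Of the oil body genes, OLEO1, OLEO2 and CLO1 fell by 0.59 ± 0.14, 0.35 ± 0.13 and 0.43 ± 0.15 on the log2 scale, and OLEO3 and OLEO4 rose by 0.34 ± 0.13 and 0.51 ± 0.15. Over the whole list 4 of 15 rose and 6 fell (median 0.00), beside 31.5% and 28.4% of all genes tested. WT had 0 higher and 8 lower (median -0.81), beside 44.2% and 38.0%.

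Storage promoters are known for the RY element, bound in seeds by B3 factors such as ABI3. Its core CATGCA, searched on both strands in the 300-base window described above, was present in 14 of 15 promoters of the list (93.3%) and in 8.7% of all promoters. The falling albumins SESA3 (plus strand, chr4:13611596-13611795) and SESA1 (plus strand, chr4:13607129-13607328) are printed, again 200 bases up to the start, with CATGCA and its reverse complement in capitals.
SESA3: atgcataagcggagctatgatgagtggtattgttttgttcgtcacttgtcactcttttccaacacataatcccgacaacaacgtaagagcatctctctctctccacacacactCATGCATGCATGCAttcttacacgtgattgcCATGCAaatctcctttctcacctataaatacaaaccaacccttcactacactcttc
SESA1: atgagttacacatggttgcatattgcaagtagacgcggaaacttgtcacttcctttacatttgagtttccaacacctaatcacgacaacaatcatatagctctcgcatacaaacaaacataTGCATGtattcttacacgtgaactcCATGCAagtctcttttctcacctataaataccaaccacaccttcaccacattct
Since 14 of 15 promoters held the element, it was present both among storage genes that rose and among those that fell in hid1.

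Genes of ABA synthesis moved in both directions in hid1, as did the genes tested as a whole. ABA1 (AT5G67030), the zeaxanthin epoxidase of an early step, rose from 71.9, 73.1 and 71.3 CPM to 115, 111 and 114 CPM (0.65 ± 0.07, adjusted p = 3.27e-08). In WT it went from 50.5 to 20.8 CPM, and the difference was 1.94 ± 0.11 (adjusted p = 4.48e-14). The NCED genes encode the 9-cis-epoxycarotenoid dioxygenases, held to be the rate-limiting step. NCED6 (AT3G24220) stood at 7.03, 6.71 and 4.25 CPM at 24 h and 7.34, 6.41 and 4.63 CPM at 48 h, and the groups overlapped (0.04 ± 0.17, adjusted p = 0.881). NCED9 (AT1G78390) fell from 5.24, 6.55 and 6.48 CPM to 3.9, 3.5 and 3.84 CPM (-0.70 ± 0.12, adjusted p = 1.59e-05). NCED5, NCED2 and NCED3 fell by 1.62 ± 0.22, 1.32 ± 0.49 and 0.96 ± 0.27 on the log2 scale. In WT NCED6 went from 1.38 to 0.359 CPM and NCED9 from 4.3 to 0.696 CPM, and the difference between the genotypes passed for both (1.98 ± 0.38 and 1.92 ± 0.21, adjusted p = 5.56e-05 and 1.05e-08). In all, 3 of 10 synthesis genes rose and 4 fell in hid1 (median 0.08), beside 31.5% and 28.4% of all genes tested. In WT 1 rose and 9 fell (median -1.07), beside 44.2% and 38.0%.

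The genes of ABA breakdown moved in both directions in hid1. Of 4 tested 2 were higher and 2 lower, beside 31.5% and 28.4% of all genes tested. CYP707A1, CYP707A2 and CYP707A3 encode ABA 8'-hydroxylases. CYP707A1 (AT4G19230) rose from 4.6, 5.17 and 4.2 CPM to 56.7, 54 and 66 CPM (3.66 ± 0.13, adjusted p = 1.89e-17), which was more than in WT (2.86 ± 0.14, difference 0.80 ± 0.21, adjusted p = 0.00151). CYP707A3 (AT5G45340) rose from 5.28, 5.33 and 5.13 CPM to 16.5, 15 and 16.3 CPM (1.603 ± 0.16, adjusted p = 3.29e-09). CYP707A2 (AT2G29090), the member known for the early drop of ABA in imbibed seeds, fell from 38.7, 35.9 and 39.7 CPM to 18.8, 16 and 16.5 CPM (-1.16 ± 0.10, adjusted p = 1.49e-10). No libraries overlapped for these 3 genes. The fall of CYP707A2 in WT was much deeper, from 28.3 to 0.801 CPM, and the difference was 4.02 ± 0.20 (adjusted p = 3.9e-15). Per length, the authors' mean FPKM in hid1 was 20.3 for CYP707A2 and 2.51 for CYP707A1 at 24 h, and 9.07 and 31.7 at 48 h, so that their order was exchanged. UGT71B6, which glucosylates ABA, fell by 1.30 ± 0.35 on the log2 scale.

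**Figure D3:**
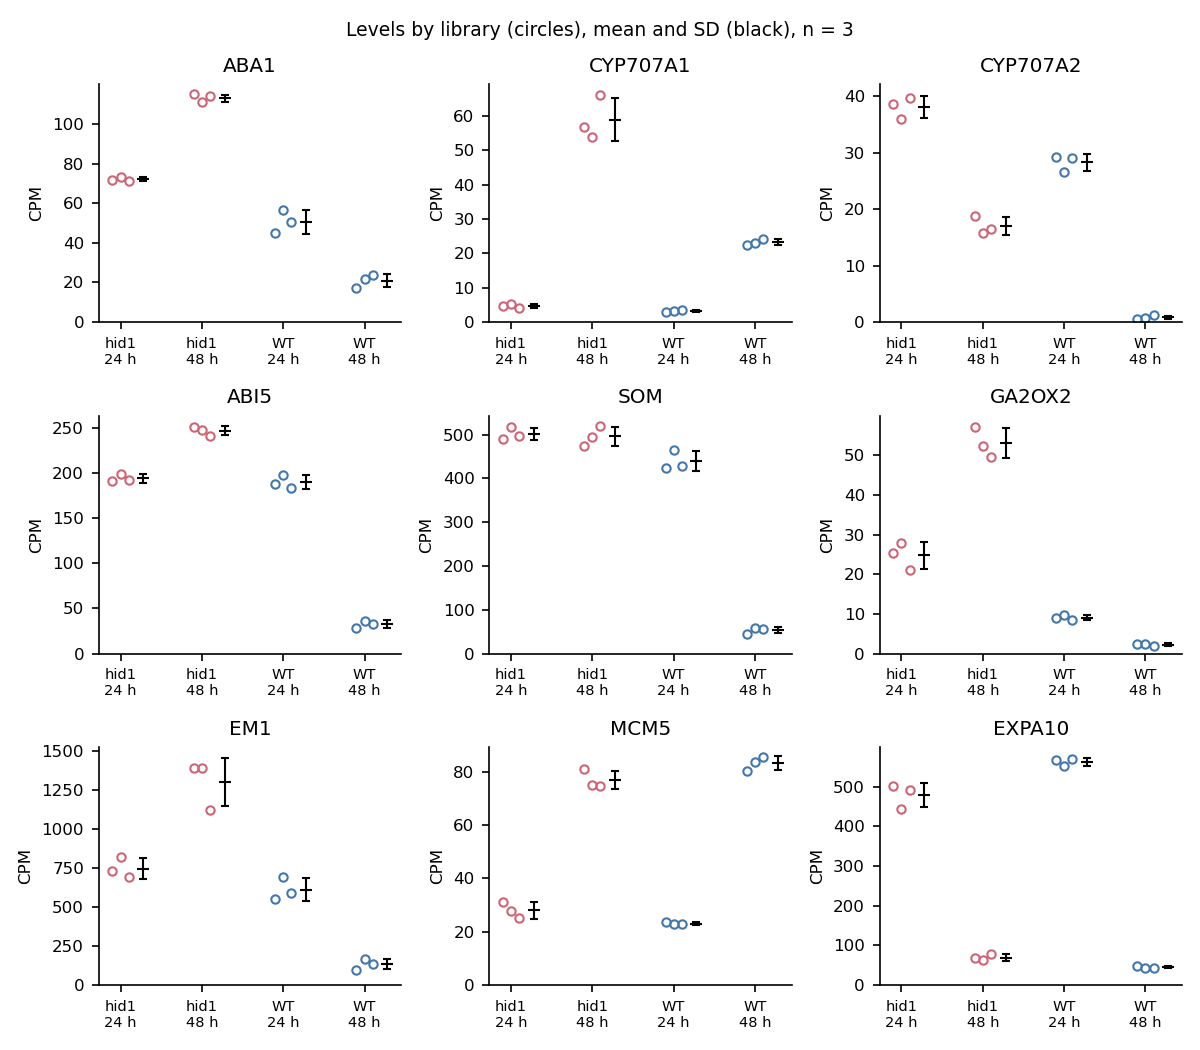
Levels of 9 named genes in CPM by library (circles) in hid1 (red) and WT (blue) at 24 h and 48 h, with the mean and SD of 3 libraries in black. ABI5 and EM1 were higher at 48 h than at 24 h in hid1, SOM overlapped between the times, and all 3 were low at 48 h in WT; MCM5 rose and EXPA10 fell in both, and CYP707A1 was highest in hid1 at 48 h.

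Transcripts of several ABA signalling and dormancy factors that fell in WT stayed near their 24 h level in hid1. ABI5 (AT2G36270), the bZIP factor that enforces ABA arrest after germination has begun, rose from 191, 199 and 192 CPM to 251, 248 and 241 CPM (0.35 ± 0.07, adjusted p = 5.39e-05), and in WT fell from 190 to 32.4 CPM (difference 2.90 ± 0.10, adjusted p = 1.59e-18). ABI3 (AT3G24650), the B3 factor of seed maturation, stood at 450, 486 and 462 CPM and then at 423, 429 and 436 CPM (-0.12 ± 0.07, adjusted p = 0.172). SOM (AT1G03790), a CCCH zinc finger protein that restrains germination below PIF1, stood at 490, 517 and 496 CPM and then at 475, 495 and 519 CPM, with overlapping groups (-0.01 ± 0.08, adjusted p = 0.901). In WT, ABI3 and SOM fell from 447 to 56.8 CPM and from 440 to 53.7 CPM, and the differences were 2.86 ± 0.11 and 3.02 ± 0.11 (adjusted p = 1.45e-17 and 1.75e-17). DOG1, the dormancy regulator, was near the limit of counting in hid1, at 0.107 to 0.518 CPM at 24 h and 0.0498 to 0.194 CPM at 48 h (-1.51 ± 0.77, adjusted p = 0.0914); without replicate 2 at 24 h it passed (-1.91, adjusted p = 0.0367). The protein phosphatases that hold ABA signalling in check did not move together. HAB1 rose from 32.9, 29.8 and 28.8 CPM to 55.5, 59.6 and 58.3 CPM (0.92 ± 0.07), ABI1 and HAI2 fell by 0.32 ± 0.07 and 0.35 ± 0.07 on the log2 scale, and ABI2 did not pass (0.07 ± 0.15). RDO5, a phosphatase-like dormancy factor, fell from 125, 126 and 139 CPM to 57.5, 62.7 and 61.4 CPM (-1.103 ± 0.09, adjusted p = 6.71e-11). Of the kinases that carry the signal, OST1 rose by 1.42 ± 0.12 and SNRK2.3 fell by 0.83 ± 0.07 on the log2 scale. Over the list 4 of 18 rose and 7 fell (median -0.13), beside 31.5% and 28.4% of all genes tested. In WT 4 rose and 13 fell (median -1.47), beside 44.2% and 38.0%. The difference passed for 13 genes above WT and 2 below, beside 30.5% and 32.1% of all genes.

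In GA synthesis the difference from WT passed for 7 of 10 genes above WT and 2 below, beside 30.5% and 32.1% of all genes. The 2 below were genes of the last step, GA3OX2 and GA3OX1. GA3OX2 (AT1G80340), which makes bioactive GA, fell from 1.65, 1.49 and 1.71 CPM to 0.636, 0.437 and 0.548 CPM (-1.56 ± 0.33, adjusted p = 0.000219), and in WT rose from 4.59 to 6.9 CPM (0.59 ± 0.19, difference -2.15 ± 0.38, adjusted p = 1.93e-05). Its paralog GA3OX1 (AT1G15550) stood at 2.91, 2.72 and 1.97 CPM and then 2.76, 3.01 and 1.69 CPM in hid1, with overlapping groups (-0.02 ± 0.25, adjusted p = 0.962), where WT went from 6.77 to 15.6 CPM (difference -1.23 ± 0.30, adjusted p = 0.000835). GA2OX2 (AT1G30040), an oxidase that inactivates GA, did the reverse. It rose in hid1 from 25.4, 27.8 and 21.2 CPM to 57.2, 52.3 and 49.7 CPM (1.099 ± 0.09, adjusted p = 2.68e-11) and fell in WT from 9.09 to 2.27 CPM (difference 3.09 ± 0.16, adjusted p = 3.8e-15). Its relative GA2OX6 (AT1G02400) had a difference of the opposite sign (-6.99 ± 0.89, adjusted p = 1.44e-07). GA2OX6 rose in WT (5.91 ± 0.32) and did not pass in hid1 (-1.09 ± 0.70, adjusted p = 0.187), where it stood at 0.0498 to 0.291 CPM. Among the DELLA repressors, which block GA responses, RGL3 fell by 1.22 ± 0.07, GAI by 0.66 ± 0.07, RGL2 by 0.42 ± 0.07 and RGA by 0.20 ± 0.06 on the log2 scale. RGL2 (AT3G03450), the DELLA protein known for restraining germination, went from 294, 302 and 298 CPM to 227, 219 and 222 CPM, where WT went from 287 to 56.7 CPM (difference 1.92 ± 0.10, adjusted p = 1.18e-14). The GA receptor gene GID1B rose by 1.93 ± 0.27, GID1A fell by 0.20 ± 0.07 on the log2 scale, and GID1C did not pass (-0.05 ± 0.09). Over the lists, 3 of 10 synthesis genes rose and 3 fell in hid1 (median 0.09, WT -0.83). Of 11 genes for perception, DELLA proteins and GA 2-oxidases 2 rose and 6 fell (median -0.20, WT -1.03). Both counts stand beside 31.5% higher and 28.4% lower over all genes tested.

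**Figure D4:**
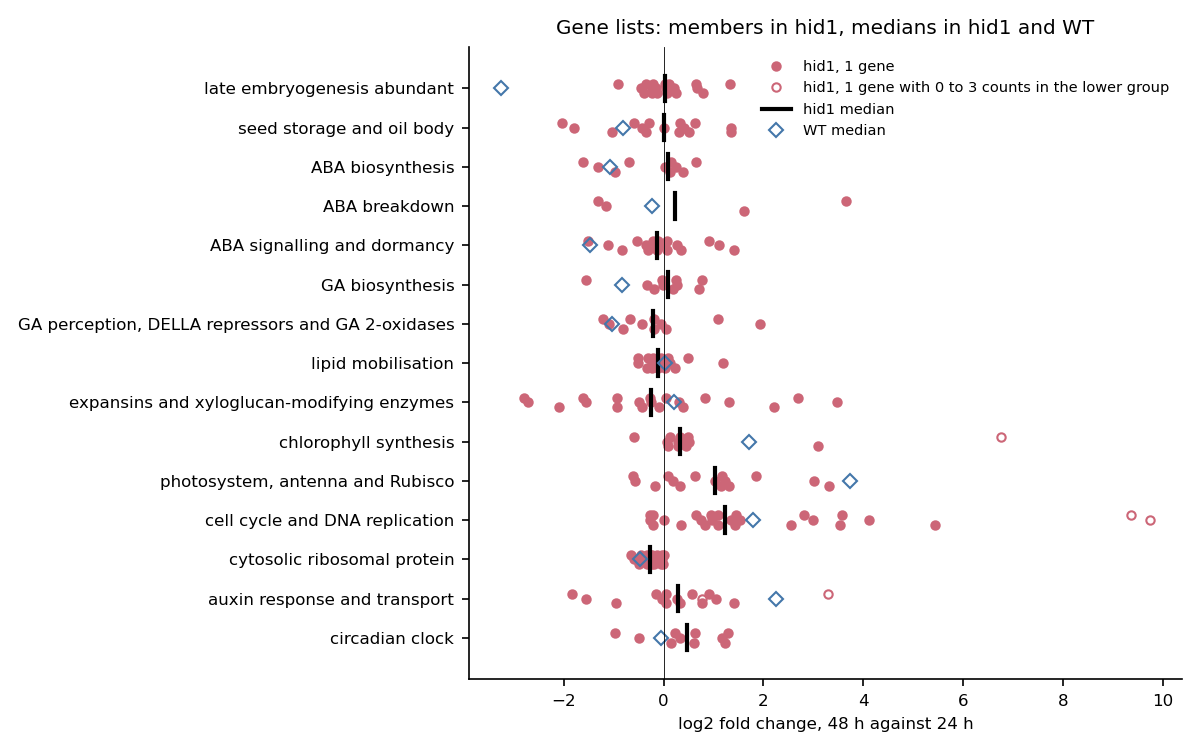
Log2 fold change from 24 h to 48 h of each member of 15 gene lists in hid1 (red, open where the lower group held 0 to 3 counts), with the list's median in hid1 (black bar) and in WT (blue diamond). The LEA median is 0.03 in hid1 and -3.25 in WT, and the cell cycle median is 1.23 in hid1 and 1.80 in WT.

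Cell wall genes moved in both directions. The expansins EXPA10 (AT1G26770), from 502, 445 and 491 CPM to 67.8, 62.3 and 78.1 CPM (-2.79 ± 0.10, adjusted p = 4.41e-17), and EXPA1 (AT1G69530), from 744, 654 and 778 CPM to 111, 94 and 124 CPM (-2.72 ± 0.13, adjusted p = 2.84e-15), fell sharply. Expansins loosen walls during growth, and EXPA2 (AT5G05290) is the member tied to the endosperm. It fell from 1220, 1130 and 1330 CPM to 435, 398 and 429 CPM (-1.55 ± 0.15, adjusted p = 2.08e-09), less than in WT (-2.88 ± 0.16, difference 1.33 ± 0.21, adjusted p = 4.73e-06). XTH15 (AT4G14130), which cuts and rejoins xyloglucan, rose from 34.1, 34.7 and 20.1 CPM to 361, 318 and 316 CPM (3.48 ± 0.18, adjusted p = 8.96e-15), beside 3.19 ± 0.17 in WT. The groups of these 4 genes did not overlap. Of 20 expansin and XTH genes 6 rose and 9 fell in hid1 (median -0.26), beside 31.5% and 28.4% of all genes tested. In WT 10 rose and 7 fell (median 0.21), beside 44.2% and 38.0%. EXPA6, EXPA3 and XTH18 had hid1 changes below those in WT, of -0.25 ± 0.29, -0.93 ± 0.13 and 0.39 ± 0.17. The WT changes were 2.80 ± 0.18, 0.57 ± 0.13 and 4.88 ± 0.17, and the difference passed for each (adjusted p = 3.17e-08, 9.78e-08 and 3.18e-14). EXPA3 thus had opposite signs and XTH18 the same sign in both, while EXPA6 lay within its SE of 0 in hid1.

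Genes of cell division rose in hid1. Of 26, 21 rose and 3 fell, with a median of 1.23, beside 31.5% and 28.4% of all genes tested. In WT 22 rose and 4 fell, with a median of 1.80, beside 44.2% and 38.0%. The replication helicase gene MCM5 (AT2G07690) rose from 31.2, 27.8 and 25 CPM to 80.9, 75 and 74.8 CPM (1.46 ± 0.07, adjusted p = 5.29e-15), and MCM2 (AT1G44900) from 37.7, 38 and 34.2 CPM to 70, 70.9 and 75 CPM (0.97 ± 0.08, adjusted p = 1.27e-10). Both replication genes separated the times in every library. Mitotic genes started from almost nothing. CYCB1;2 (AT5G06150), a B-type cyclin, was not counted at 24 h and reached 6.74, 5.34 and 4.58 CPM at 48 h, at least 110-fold higher when the 24 h group is set to a floor of 3 counts in sum. CYCB1;4 (AT2G26760) went from 0 counts to 4.66, 4.37 and 3.94 CPM, at least 85-fold higher. KNOLLE (AT1G08560), the syntaxin of the cell plate, rose from 0.194, 0.0533 and 0.104 CPM to 6.44, 6.12 and 3.69 CPM (5.44 ± 0.37, adjusted p = 5.74e-12), where WT reached 23.5 CPM. CDKB1;1 (AT3G54180), a kinase of the G2 to M transition, rose by 3.59 ± 0.19. The list was uneven: CYCB1;1, also known as a DNA damage-responsive cyclin, did not pass (-0.27 ± 0.12, adjusted p = 0.0607), the ribonucleotide reductase gene TSO2 and the cyclin gene CYCD2;1 fell by 0.21 ± 0.08 and 0.26 ± 0.06 on the log2 scale, and so did PCNA2, by 0.22 ± 0.09. The number that fell was 1 without replicate 1 at 24 h and 1 without replicate 3 at 48 h. The test of the difference passed for 18 genes below WT and 3 above, beside 32.1% and 30.5% of all genes.

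Replication genes are known targets of E2F factors and mitotic cyclins of MYB factors that bind the MSA element. TTCCCGC, searched on both strands in the same window, stood in 8 of 26 cell cycle promoters (30.8%) and in 1.62% of all promoters, and CCAACGG in 4 of 26 (15.4%) and 2.18%. The 200 bases before the start are printed for MCM2 (plus strand, chr1:16970014-16970213) and MCM5 (minus strand, chr2:3527501-3527700), with TTCCCGC in capitals, and for CYCB1;2 (minus strand, chr5:1861704-1861903), with CCAACGG or its reverse complement in capitals, as the replication and mitotic genes whose levels are given above.
MCM2: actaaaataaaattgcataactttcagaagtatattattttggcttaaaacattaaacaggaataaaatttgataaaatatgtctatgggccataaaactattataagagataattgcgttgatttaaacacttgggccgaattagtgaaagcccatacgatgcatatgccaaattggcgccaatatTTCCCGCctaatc
MCM5: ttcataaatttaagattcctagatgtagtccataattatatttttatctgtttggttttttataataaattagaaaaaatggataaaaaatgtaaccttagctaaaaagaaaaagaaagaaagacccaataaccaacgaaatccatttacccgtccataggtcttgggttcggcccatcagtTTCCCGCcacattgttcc
CYCB1;2: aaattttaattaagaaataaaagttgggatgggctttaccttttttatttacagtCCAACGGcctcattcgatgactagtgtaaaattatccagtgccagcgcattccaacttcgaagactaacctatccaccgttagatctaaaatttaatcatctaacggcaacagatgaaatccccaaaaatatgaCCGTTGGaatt
These matches describe the letters near the gene starts and were not tested against the changes.

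Cytosolic ribosomal protein genes went slightly down. None of 25 rose and 17 fell, beside 31.5% and 28.4% of all genes tested, with a median of -0.27, and the falls were small, from 0.20 to 0.64 on the log2 scale. RPL9C (AT1G33140) fell from 404, 371 and 341 CPM to 259, 254 and 202 CPM (-0.64 ± 0.11, adjusted p = 2.63e-05) and RPL26A (AT3G49910) from 1050, 1000 and 947 CPM to 701, 666 and 614 CPM (-0.60 ± 0.10, adjusted p = 1.12e-05). Each of the 3 libraries at 48 h lay below each at 24 h for both. In WT 23 fell, with a median of -0.47, beside 38.0% of all genes tested. The letters TGGGCC, known as site II, were in 80.0% of the 25 promoters and in 19.0% of all promoters, and AAACCCTA, the telo-box, in 48.0% and 5.69%. The window of RPL26A (plus strand, chr3:18503964-18504163) holds TGGGCC, here in capitals as its reverse complement.
RPL26A: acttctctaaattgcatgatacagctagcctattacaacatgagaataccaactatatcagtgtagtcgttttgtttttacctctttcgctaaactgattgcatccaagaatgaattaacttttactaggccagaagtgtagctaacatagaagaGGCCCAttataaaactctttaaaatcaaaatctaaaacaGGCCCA
Ribosomal RNA genes, whose transcripts carry no poly(A) tail as a rule, were higher in hid1 in 12 of 13 cases tested, beside 31.5% of all genes. In WT 12 of 13 were higher too, beside 44.2%, and the difference between the genotypes did not pass for any of the 13. Their share of the counts is given with the libraries above.

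Some genes of the photosynthetic apparatus rose in hid1. PORA (AT5G54190) and PORB (AT4G27440) encode the protochlorophyllide oxidoreductases of dark-grown seedlings. PORA had 1 count in the 3 libraries at 24 h and stood at 2.33, 4.13 and 1.2 CPM at 48 h, a ratio of 150 (95% counting interval 26.5 to 5950), where WT, without a count at 24 h, reached 532 CPM, at least 10900-fold higher. PORB rose from 0.485, 0.533 and 0.415 CPM to 4.24, 5.78 and 2.39 CPM (3.10 ± 0.53, adjusted p = 1.66e-05), against 754 CPM in WT at 48 h (difference -6.42 ± 1.1, adjusted p = 1.32e-05). The hid1 libraries at 48 h were thus above those at 24 h for both genes and far below WT at 48 h. Beside 31.5% higher and 28.4% lower over all genes tested, of 13 chlorophyll synthesis genes 8 rose and 1 fell (median 0.33, WT 1.71), and of 15 photosystem, antenna and Rubisco genes 7 rose and 1 fell (median 1.04, WT 3.73). CHLD (AT1G08520), a subunit of magnesium chelatase, rose from 107, 106 and 95.2 CPM to 150, 139 and 134 CPM (0.46 ± 0.07). RBCS2B (AT5G38420), a small subunit of Rubisco, rose from 3.49, 2.82 and 1.66 CPM to 28.6, 29.9 and 21.4 CPM (3.32 ± 0.26, adjusted p = 3.11e-11), beside 536 CPM in WT at 48 h; reads of the RBCS genes may be shared among near-identical copies.

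Among photoreceptors and their partners, PHYB (AT2G18790) rose in hid1 from 109, 120 and 123 CPM to 147, 142 and 156 CPM (0.34 ± 0.06, adjusted p = 1.99e-05) and fell in WT from 125 to 95.4 CPM (difference 0.73 ± 0.08, adjusted p = 2.61e-08). PHYA, the photoreceptor of far-red light, rose by 0.49 ± 0.07. FHL (AT5G02200), which carries phytochrome A into the nucleus, rose from 4.02, 4.37 and 2.9 CPM to 31.2, 32.8 and 34 CPM (3.11 ± 0.15, adjusted p = 5.29e-15), more than in WT (1.86 ± 0.15, difference 1.25 ± 0.22, adjusted p = 2.21e-05). PIF1 (AT2G20180), the phytochrome-interacting factor that represses germination in the dark, fell from 129, 133 and 130 CPM to 99.2, 103 and 99.5 CPM (-0.38 ± 0.06, adjusted p = 1.42e-05), less than in WT (-0.87 ± 0.06, difference 0.50 ± 0.09, adjusted p = 3.09e-05). PIL1, a marker of shade and dark growth, rose by 3.25 ± 0.25 and HLS1, the apical hook gene, fell by 0.59 ± 0.09 on the log2 scale. Of 16 genes of this list 6 rose and 5 fell (median -0.14, WT 1.13), beside 31.5% and 28.4% of all genes tested.

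Of 10 clock genes 6 rose and 2 fell (median 0.47, WT -0.05), beside 31.5% and 28.4% of all genes tested. GI (AT1G22770) rose from 8.14, 8.42 and 6.79 CPM to 19.4, 19 and 16.4 CPM (1.23 ± 0.12), and the evening gene TOC1 (AT5G61380) from 47.5, 50.6 and 50.1 CPM to 73.7, 78.1 and 77.3 CPM (0.63 ± 0.06). The repressor genes PRR7 and PRR5 rose by 0.62 ± 0.07 and 1.17 ± 0.14. The morning gene CCA1 fell by 0.49 ± 0.11 on the log2 scale and LHY did not pass (0.22 ± 0.11). The time of day of sampling was not analysed here.

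Many genes of the growing root were near the limit of counting in hid1. Of 17 root hair genes 11 rose and 0 fell in hid1, beside 31.5% and 28.4% of all genes tested. The median was 3.39, or 1.45 with genes of 0 counts at their bound. In WT all 17 rose (median 12.04, or 9.45 with bounds), beside 44.2% of all genes tested. In hid1 the number that rose was 5 without replicate 2 at 48 h. It was 7 without replicate 1 at 24 h and 6 without replicate 3 at 24 h. When the 6 hid1 libraries were fitted alone it was 3. The median was 2.04 without replicate 2 at 48 h and 0.64 with the hid1 libraries alone. In the latter fit, and without replicate 3 at 24 h, 1 gene fell. PRP3 (AT3G62680), a proline-rich protein of the root hair wall, went from 0 counts to 0.127, 1.36 and 0.299 CPM, at least 11.3-fold higher, against 205 CPM in WT. CSLD3 (AT3G03050), a cellulose synthase-like protein needed for hair growth, rose from 30.3, 28.6 and 31.1 CPM to 50.1, 48.6 and 51.6 CPM (0.74 ± 0.07, adjusted p = 1.77e-09), less than in WT (2.70 ± 0.07, difference -1.96 ± 0.10, adjusted p = 4.26e-15). RHS10 rose from 0.969, 0.746 and 0.726 CPM to 3.65, 3.2 and 3.44 CPM (2.06 ± 0.21). The Casparian strip genes CASP1 to CASP5 did not pass in hid1, and MYB36, the factor that switches them on, rose by 2.14 ± 0.46. Over the root tip and endodermis list 3 of 13 rose and 1 fell in hid1 (median 0.49, WT 3.17), beside 31.5% and 28.4% of all genes tested. For PRP3 and for the hair gene RHS19, replicate 2 was the highest of the 3 hid1 libraries at 48 h.

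Aquaporins, the water channels of growing tissue, moved in both directions in hid1, as did the genes tested as a whole. The seed tonoplast channel gene TIP3;2 (AT1G17810) rose from 125, 153 and 151 CPM to 272, 299 and 219 CPM (0.88 ± 0.14, adjusted p = 3.45e-06), and fell in WT from 83.8 to 54.7 CPM (difference 1.50 ± 0.19, adjusted p = 2.09e-07). TIP3;1 fell by 0.55 ± 0.14 on the log2 scale. TIP1;2 (AT3G26520) went from 1 count in all to 4.54, 5.58 and 2.84 CPM, a ratio of 255 (95% counting interval 45.4 to 10100), where WT reached 602 CPM. PIP1;4 (AT4G00430), of the plasma membrane, fell from 22.9, 22.1 and 18 CPM to 11.7, 12 and 11.4 CPM (-0.85 ± 0.09) and rose in WT (0.84 ± 0.08, difference -1.69 ± 0.12, adjusted p = 3.88e-12). In hid1 5 of 18 rose and 4 fell (median 0.44, or 0.21 with bounds), against 16 and 2 in WT (median 4.34), beside 31.5% and 28.4% of all genes in hid1 and 44.2% and 38.0% in WT. The hid1 median was 0.15 without replicate 2 at 48 h, 0.21 without replicate 3 at 48 h, 0.60 without replicate 1 at 24 h and 0.11 with the hid1 libraries alone.

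The hid1 change lay below the WT change for most auxin genes tested. PIN7 (AT1G23080), an auxin efflux carrier, fell from 44.9, 42.1 and 52.5 CPM to 13.3, 11.9 and 13.8 CPM (-1.84 ± 0.10, adjusted p = 2.4e-14), and in WT rose from 53.2 to 71.4 CPM (difference -2.27 ± 0.13, adjusted p = 5.3e-14). IAA2 (AT3G23030), an early auxin response gene, fell from 8, 8.31 and 9.33 CPM to 2.71, 3.16 and 2.89 CPM (-1.55 ± 0.14), where WT rose from 10.1 to 27.7 CPM (difference -3.01 ± 0.18, adjusted p = 8.78e-14). The carrier genes PIN4 and PIN2 rose by 1.41 ± 0.13 and 1.05 ± 0.13. Of 16 tested 4 rose and 3 fell in hid1 (median 0.29), beside 31.5% and 28.4% of all genes. In WT 15 rose and 1 fell (median 2.26), beside 44.2% and 38.0%. The difference passed for 14, all below WT, beside 32.1% of all genes.

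Reserve and stress genes moved in both directions, and their counts stand beside 31.5% higher and 28.4% lower over all genes tested. Of 17 genes of lipid breakdown and the glyoxylate cycle 3 rose and 7 fell (median -0.10). ICL (AT3G21720), the isocitrate lyase, stood at 12100, 12400 and 13000 CPM and then 13200, 12900 and 13700 CPM and did not pass (0.09 ± 0.11, adjusted p = 0.518). SDP1, the triacylglycerol lipase, and PED1, a thiolase, fell by 0.50 ± 0.05 and 0.51 ± 0.06 on the log2 scale. Without replicate 3 at 24 h, 4 genes of this list passed as lower. Of the raffinose pathway GOLS1, RS4 and RS5 rose by 0.79 ± 0.11, 1.35 ± 0.17 and 1.74 ± 0.17, and the other 2 of 5 did not pass. Of 14 heat shock genes 5 were higher and 4 lower (median -0.46), close to the shares over all genes tested. HSP101 (AT1G74310), a disaggregating chaperone, rose from 11.1, 9.16 and 9.9 CPM to 35.9, 43.7 and 31.5 CPM (1.88 ± 0.28, adjusted p = 2.26e-06) and HSP23.6 from 2.42, 1.86 and 2.44 CPM to 12.7, 12.6 and 8.97 CPM (2.35 ± 0.31, adjusted p = 3.53e-07), with no overlap, whereas HSP70 (AT3G12580) and HSP90.1 fell by 0.34 ± 0.14 and 0.59 ± 0.19 on the log2 scale. The other falls were of small heat shock genes at low levels: HSP22.0 went from 0.533, 0.586 and 0.622 CPM to 0.0424, 0.0971 and 0.199 CPM (-2.34 ± 0.82, adjusted p = 0.0154), and HSP15.7 changed by -1.005 ± 0.29 (adjusted p = 0.0043). Without replicate 1 at 48 h, 2 heat shock genes passed as lower. Of 8 mineral uptake genes 3 rose and 3 fell, with the nitrate reductase genes NIA2 at 1.38 ± 0.14 and NIA1 at -0.88 ± 0.09.

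Tissue markers moved unevenly between 24 h and 48 h in hid1, and their part in the results above was not tested. Their counts in hid1 stand beside 31.5% higher and 28.4% lower over all genes tested. Of 7 endosperm markers tested 1 rose and 3 fell (median -0.12), with a summed level of 3450 to 4080 CPM at 24 h and 3090 to 3240 CPM at 48 h; in WT the sum went from 2610 to 3150 CPM to 793 to 958 CPM. MAN7, a mannanase of the endosperm wall, fell by 1.17 ± 0.10 on the log2 scale, EXPA2 and CYP707A2 as given above, and EPR1, an endosperm extensin, did not pass (0.26 ± 0.18). MAN2 rose by 0.50 ± 0.15, a call that ended without replicate 3 at 24 h (0.36, adjusted p = 0.0566). The list shares EXPA2, NCED6 and CYP707A2 with other lists. The markers ZOU and MAN6 were at 0 counts in all 6 libraries. Of 6 meristem and epidermis markers 1 rose and 2 fell, with sums of 851 to 893 CPM and 923 to 1010 CPM. PDF1 (AT2G42840), a marker of the outer cell layer, rose from 167, 152 and 128 CPM to 429, 404 and 343 CPM (1.39 ± 0.11, adjusted p = 5.44e-11), beside 3.26 ± 0.12 in WT.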

How the data were processed

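Poly(A) RNA of whole seeds was sequenced in 27 libraries as 150-base read pairs, per the labels. The deposited gene table holds raw counts made by the authors; fastp, HISAT2 2.1.0, SAMtools 1.6 and TAIR10 are named in the submitters' processing notes, while for the counting tool, its strand setting and the annotation release nothing is stated in the labels. Overlapping and antisense genes can therefore share reads. A second deposited table gives FPKM from the authors as 1 mean per group, printed as their value with no error.

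Counts were scaled by TMM and tested in R 4.3.3 with edgeR 4.0.16, which builds on limma 3.58.1: genes were kept by filterByExpr, all 9 groups of 27 libraries entered 1 quasi-likelihood fit with 18 residual degrees of freedom, and p-values were adjusted by Benjamini-Hochberg over the 20465 genes tested, with 0.05 as the threshold. The contrasts were hid1 at 48 h against 24 h, the same in WT, and the difference between both, 2-sided. Each SE was worked back from the test, as the size of the log2 fold change divided by the square root of its F statistic. The hid1 and WT contrasts share no libraries. Fold bounds of genes without counts in a group use a floor of 3 counts over the group; ratio intervals are exact 95% binomial ones, and both cover counting error only. The scripts were tested on simulated data. Where both genotypes held 0 counts at 1 time, or 1 genotype at both times, the difference could not be estimated, and such genes count as not passing. Other scalings, no filter, DESeq2 1.42.0, fewer libraries, a block and left-out replicates were tried.

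The interval, the gene lists and the naming rule were chosen with earlier results of these data known. The rule named the 12 largest rises and 12 largest falls that passed, reached a mean of 10 CPM in the higher group and had no overlap of libraries; the 8 largest differences from WT in each direction; up to 4 genes per list with the smallest p in hid1; and 16 genes always. Genes without a symbol were named only among the 4 largest of their direction. Other genes named, such as EM6, LEA4-5, the oleosins, CYCB1;4, KNOLLE, RGL2 and the kinases and phosphatases of ABA signalling, were chosen after their values were seen. Replicates are biological replicates per the labels, and no libraries of a group agreed within sampling noise.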

Additional observations from a re-analysis of the deposited data

Results flagged for a closer look

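The change from 24 h to 48 h differed between hid1 and WT, by the test of the difference itself (edgeR quasi-likelihood test), for 12813 genes (62.6% of those tested). The genes with the largest differences in each direction are given here as values.

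Among those with the hid1 change above the WT change, CYP71A13, an enzyme of camalexin synthesis, fell in both and differed by 6.0 ± 0.85 (adjusted p = 8.73e-07); WT held 1 count at 48 h, a ratio of 877 between 24 h and 48 h (95% counting interval 157 to 34700). AT4G18220, a transporter of the drug and metabolite superfamily, stood at 13.6, 16.1 and 16.1 CPM and then 13.5, 16 and 14.4 CPM in hid1, where WT went from 14 to 0.584 CPM (difference 4.56 ± 0.23). The LEA gene AT3G02480 differed by 4.46 ± 0.19. SRO3, of the RCD1 family of stress regulators, rose in hid1 from 7.13, 5.97 and 4.61 CPM to 11.9, 12.5 and 12 CPM and fell in WT from 7.03 to 0.685 CPM (difference 4.38 ± 0.27). The hid1 libraries of SRO3 did not overlap between times. The cold-regulated gene AT3G03341 did not pass in hid1 (-0.02 ± 0.10), while WT went from 52.5 to 2.58 CPM (difference 4.33 ± 0.18). AT3G15670, a gene of the LEA list and 1 of its 5 members counted as higher in hid1, differed by 4.19 ± 0.16. Its own hid1 change was 0.26 ± 0.11 (adjusted p = 0.0379). That call no longer passed when any 1 of 5 of the 6 hid1 libraries was left out (0.19 to 0.28, adjusted p = 0.0526 to 0.168). It passed without replicate 3 at 48 h. AT2G18193, an ATPase of the P-loop superfamily, rose in hid1 from 16, 15.5 and 12.8 CPM to 88.2, 94.9 and 83.6 CPM and fell in WT (difference 4.15 ± 0.24). The plant thionin gene AT2G15010 differed by 4.09 ± 0.16.

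Among those with the hid1 change below the WT change, all 8 had 0 counts or 1 count over the WT libraries at 24 h, so the fitted differences depend on the prior count and are no bounds. With the WT libraries at 24 h set to a floor of 3 counts in sum, the sugar transporter gene SWEET11 was at least 702-fold higher in WT at 48 h (fitted difference -12.45), AT1G29670, a GDSL lipase, at least 665-fold (-11.05), and RHS19, a root hair peroxidase, at least 2330-fold (-10.90). AT4G12510, of the lipid transfer protein family, was at least 322-fold higher (-13.06), DOX1, an alpha-dioxygenase, at least 584-fold (-11.40), the cellulose synthase-like gene ATCSLB05 at least 238-fold (-10.89) and the peroxidase gene AT4G30170 at least 5200-fold (-11.72). MES15, a methyl esterase gene, had 1 count at 24 h in WT and a ratio of 1010 there (95% counting interval 181 to 39900, fitted difference -11.34). The hid1 libraries of these 8 genes held at most 0.922 CPM.

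For 5 of these 8 the call of a difference rested on 1 hid1 library at 24 h, the one that held a count. Without that library hid1 held 0 counts at 24 h. Depending on the gene, WT at 24 h, hid1 at 48 h or both also held 0 counts, so the difference could not be estimated. Without replicate 1, AT4G12510 had an adjusted p of 1.0 (-11.21). Without replicate 3, the adjusted p was 1.0 for MES15 (-9.48), DOX1 (-9.54), ATCSLB05 (-9.04) and AT4G30170 (-9.08). In hid1 itself AT4G30170 rose by 3.50 ± 1.23 and RHS19 by 3.17 ± 0.92, and without replicate 2 at 48 h neither passed (2.54 and 2.04, adjusted p = 0.137 and 0.0794). AT4G30170 also did not pass without replicate 1 or replicate 2 at 24 h (2.95 and 3.02, adjusted p = 0.0671 and 0.0589). Genes of this section that carry no symbol are named because their differences are set out here.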

How the results depend on the processing

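The counts of genes past the threshold moved by less than 1.5 times under all 210 combinations of count and alternative tried. Genes passing in hid1 numbered 12260 with RLE scaling, 12000 with total counts, 11987 without the filter, 11671 with DESeq2, 11850 with the hid1 libraries alone and 11194 to 11515 with 1 library left out. For the difference from WT these numbers were 12707, 12686, 12538, 12764, 12653 and 12162 to 12811. With RLE scaling or DESeq2 the median over all genes was -0.133 or -0.134 in place of -0.059 for the difference, and 0.063 in place of 0.032 in hid1.

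The following signs turned. Neither the reported value nor the turned one passed for any of them; within the ranges, 1 other value passed, that of YCF1.2 when replicate 3 of WT at 48 h was left out (1.38 with an adjusted p of 0.00115). In hid1 they were SOM (RLE 0.02, total counts 0.00, DESeq2 0.02, left-out libraries -0.05 to 0.02), GA3OX1 (RLE and DESeq2 0.01, left-out -0.17 to 0.18), AT3G03341 (RLE and DESeq2 0.01, left-out -0.19 to 0.14), and with libraries left out HID1 (0.00 to 2.24), MES15 (-2.32 to 0.00), NCED6 (-0.16 to 0.20), SWEET11 (-0.97 to 0.75), AT4G12510 (-2.29 to 0.00) and ATCSLB05 (-1.85 to 1.76). For the difference from WT they were RPL26A (RLE and DESeq2 -0.03, left-out -0.10 to 0.15), PDF2 (RLE and DESeq2 -0.04), CYCB1;2 (DESeq2 -0.41) and, with libraries left out, AT2G01021 (-0.41 to 0.50), UGT71B6 (-0.08 to 0.50), DOG1 (-0.32 to 1.51), RPL2.1 (-0.50 to 0.01) and YCF1.2 (-0.05 to 1.38). The cause was not tested. Among calls in hid1, KAO2 did not pass without replicate 2 at 48 h (-0.15, adjusted p = 0.0721) and PLT2 did not without replicate 3 at 24 h (0.26, adjusted p = 0.169). The number of heat shock genes lower was 7, and of LEA genes lower 7, with the hid1 libraries alone.

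Replicate numbers are shared between the groups in the labels. The correlations of same-numbered hid1 libraries, as deviations from their group means, were 0.0672, 0.00777 and 0.0521, and in WT 0.107, 0.0628 and 0.0315, so the numbers were not taken as pairs. Each hid1 library and each WT library correlated best with its own number, a hint from the data and not from the design. With the replicate block 12415 genes passed in hid1 and 12956 for the difference. Depth limits genes with few counts at 24 h, where 1 count is about 0.05 CPM.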

Other observations

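Genes of the ER body, a compartment of the Brassicaceae that stores beta-glucosidases, rose together in hid1. The list was chosen after values were seen. In hid1 all 12 members tested rose (median 3.85, or 3.31 with genes of 0 counts at their bound), beside 31.5% of all genes. All 12 rose in WT too (median 5.25), beside 44.2%. The summed level in hid1 went from 498 to 603 CPM to 3430 to 3770 CPM. PYK10, its main beta-glucosidase, rose from 300, 280 and 241 CPM to 1950, 2020 and 1810 CPM (2.81 ± 0.41, adjusted p = 1.51e-06), and PBP1, a jacalin-related lectin that binds it, from 93.2, 90.9 and 71.6 CPM to 700, 711 and 654 CPM (3.01 ± 0.20, adjusted p = 2.27e-12). The times did not overlap for either gene. NAI1, the bHLH factor that controls ER body formation, rose by 1.16 ± 0.11, and NAI2, a structural protein of the ER body, by 1.74 ± 0.21. The lectin gene JAL22 went from 0 counts to 1.1, 1.41 and 0.648 CPM, at least 20.7-fold higher. BGLU21, named above, belongs to this list, and reads of near-identical glucosidase genes may be shared.

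The ABF factors, bZIP proteins that bind ABA response elements, all rose in hid1, beside 31.5% of all genes tested. They are a further list chosen after values were seen. ABF3 rose from 1.11, 1.17 and 1.4 CPM to 41.9, 41.2 and 38.9 CPM (5.04 ± 0.20, adjusted p = 1.39e-16), and in WT from 1.81 to 112 CPM. ABF4 rose by 0.98 ± 0.08 in hid1 and did not pass in WT (0.08), with a difference of 0.90 ± 0.12 (adjusted p = 1.93e-07). ABF1 and ABF2 rose by 1.17 ± 0.12 and 0.45 ± 0.16. Of 11 DNA damage response genes, likewise chosen late, 4 rose and 2 fell in hid1, beside 31.5% and 28.4% of all genes tested. In WT 2 rose and 8 fell, beside 44.2% and 38.0%. NAC044, a NAC factor of the DNA damage response, rose from 27.3, 22.9 and 16 CPM to 60, 60.9 and 59.6 CPM (1.45 ± 0.12) and fell in WT from 7.63 to 1.85 CPM (difference 3.48 ± 0.22, adjusted p = 4.39e-13). GMI1, induced by DNA breaks, rose by 0.41 ± 0.08 and fell in WT by 3.27 on the log2 scale. SMR5, an inhibitor of cyclin-dependent kinases, did not pass in hid1 (0.10 ± 0.12) and went from 34.7 to 3.01 CPM in WT.

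At least 2-fold, with the difference passing, 43 genes rose in hid1 and fell in WT (0.21% of genes tested) and 70 fell in hid1 and rose in WT (0.342%). Among the former were ACC2, an acetyl-CoA carboxylase gene, from 53.8 to 154 CPM in hid1 and from 39.9 to 17.5 CPM in WT, and the seed maturation factor gene FUS3, from 1.11 to 2.25 CPM and from 1.25 to 0.585 CPM. Among the latter, PAL1, a phenylalanine ammonia-lyase gene, went from 9.47 to 1.96 CPM in hid1 and from 8.1 to 101 CPM in WT, 4CL1, a 4-coumarate:CoA ligase gene, from 8.71 to 3.61 CPM and from 10.2 to 104 CPM, and CAD5, a cinnamyl alcohol dehydrogenase gene, from 4.32 to 1.22 CPM and from 4.34 to 36.7 CPM. These genes were picked after their values were seen.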
